A study of Mus musculus with 106 samples.

Results

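The C-type lectin receptors and the sialic acid-binding Siglecs are surface proteins with which myeloid cells read sugars on microbes and on other cells. The set described here holds the protein-coding genes of the mouse annotation whose symbol begins with Clec, Siglec, Pilr, Lilr or Cd300, joined by Cd33, Cd22, Cd209a and Marco. It numbers 58 of 21938 protein-coding genes: 12 Cd300 genes, 9 receptors of the Dectin-2 cluster, 8 Siglecs, 7 paired immunoglobulin-like receptors (Pilr and Lilr), 6 Clec2 genes, 6 other Clec genes, 5 receptors of the Dectin-1 cluster, 4 other lectin receptors and the scavenger receptor Marco. Clec7a, which encodes Dectin-1, is classed by the annotation as a polymorphic pseudogene and is therefore no member. Its values are given beside the set.

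H3K27ac, a histone acetylation found at active promoters and enhancers, and H3K4me3, a histone methylation found at active promoters, were mapped by ChIP-seq, which sequences the DNA fragments that an antibody to the mark pulls down. All mice were C57BL/6J and were 12 to 14 weeks old when assigned to a group, not when cells were taken. They were either controls or animals given streptozotocin (STZ), a toxin of insulin-producing cells, at 42 to 45 mg/kg/day on 5 days. Diabetic mice were used 6 weeks after the last dose if their glucose was over 13.9 mmol/L. From both kinds of mice came hematopoietic stem cells (HSC), which were whole marrow depleted of cells bearing CD3, CD4, B220, Ter119 or Gr1 and thus a mixture of stem and progenitor cells, and bone marrow-derived macrophages (BMDM), which were grown from marrow for 7 days in L929-conditioned medium at 5 mmol/L glucose. BMDM then received, for 16 h, either medium alone (unstimulated) or a mix of lipopolysaccharide (LPS, 100 ng/mL) and interferon-γ (IFN-γ, 10 ng/mL). This time is that of the study's general BMDM protocol, since its ChIP-seq methods state none. Each mark had 35 lists of peaks, 6 in each of 5 groups and 5 in the group of unstimulated diabetic BMDM, which lacks number 3. The study's methods count individual animals as its replicates, while the labels do not tie a library to an animal, so that libraries of different cells, marks or treatments cannot be matched by animal. The p-values measure the spread between these libraries.

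The activating C-type lectins of myeloid cells signal through an immunoreceptor tyrosine-based motif, either of their own or on the adaptors Fcer1g (the Fc receptor gamma chain) and Tyrobp (DAP12), to the kinase Syk and the adaptor Card9. Most Siglecs, and several of the Cd300, Pilr and Lilr receptors, carry an inhibitory motif that recruits the phosphatase Ptpn6 (SHP-1) and so restrain the same route. Several of these families lie in tight gene clusters of closely related copies, in which activating and inhibitory receptors stand side by side.

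The lists held 13730 to 277213 peaks each, with a median of 110154, and 40.8% to 79.3% of all genes had a peak within 1000 bp of a start site. No list states how many reads it was made from, so depth is unknown. The median share of genes marked with H3K27ac was 67.7% in HSC and 67.8% in unstimulated BMDM lists, but for H3K4me3 it was 65.6% in HSC and 73.0% in unstimulated BMDM. The labels were checked against marker genes: with a rank score from 100 for the best-marked promoter of a list to 0 for promoters beyond the 10000 best or without a peak, the mean H3K27ac score of 10 macrophage genes was 0 to 3.0 in HSC (median 0) and 6.17 to 33.4 in unstimulated BMDM (median 15.04), while that of 10 stem and progenitor genes was 5.26 to 11.5 in HSC and 0.647 to 8.30 in unstimulated BMDM. Lists of 6 B cell and 4 eosinophil genes were at 0 in every H3K27ac library of HSC and of BMDM, and 6 neutrophil genes stayed at 1.43 or lower. Other lists of non-macrophage genes were not at 0. The H3K27ac medians of 5 plasmacytoid dendritic genes were 14.8 in HSC, 21.1 in unstimulated and 24.2 in LPS+IFN-γ BMDM. Dendritic and T cell genes reached 12.3 and 13.3 in LPS+IFN-γ BMDM, and megakaryocyte genes 13.6 in unstimulated BMDM. The scores of 5 erythroid genes were 6.95 to 42.8 in HSC and 3.62 to 11.45 in unstimulated BMDM. For H3K4me3 the B cell genes had 4.05 to 11.9 in HSC. By this mark the 10 stem and progenitor genes did not separate HSC (22.3 to 42.1) from unstimulated BMDM (21.2 to 43.8). The 10 macrophage genes overlapped, at 2.02 to 17.5 in HSC and 7.73 to 30.9 in unstimulated BMDM. In 364 genes whose H3K27ac differed on stimulation in diabetic BMDM (124 higher and 240 lower), the mean score of the former minus that of the latter was −19.7 in the control library labelled LPS+IFN-γ 5, and 17.4 and 11.1 in the control libraries labelled unstimulated 5 and 6. The other control libraries had 7.58 to 36.6 when stimulated and −28.4 to −7.75 when not. The 364 genes were chosen on the diabetic libraries, not on these. These 3 H3K27ac libraries thus went against their labels (no H3K4me3 library was checked in this way), and results that rest on them are also given without them.

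In most of the 35 lists of a mark, 30 of the 58 lectin and Siglec promoters had an H3K27ac peak and 13 an H3K4me3 peak, and 9 and 13 had none in any list. A median of 29 of the 58 promoters had an H3K27ac peak in a list (13 to 44) and 18 an H3K4me3 peak (1 to 33). The median member was marked in 18.5 of 35 H3K27ac lists and 9 of 35 H3K4me3 lists, whereas the median over all genes was 34 for each mark. The peaks present were weak within their lists. For H3K27ac, the median deposited −log10 p was 10.3 over 979 marked member promoters and 41.7 over all marked genes, with a fold enrichment over local background of 4.22 and 6.92. For H3K4me3, the medians were 8.79 and 28.5 for −log10 p over 616 marked member promoters and all genes, and 3.50 and 5.18 for fold. When the promoters of a list were ranked by −log10 p, 17.9% of the marked members and 68.0% of all marked genes reached the 10000 best for H3K27ac, and 12.7% and 64.9% did for H3K4me3. No test was made of these differences, because members and lists share their libraries.

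**Figure D1:**
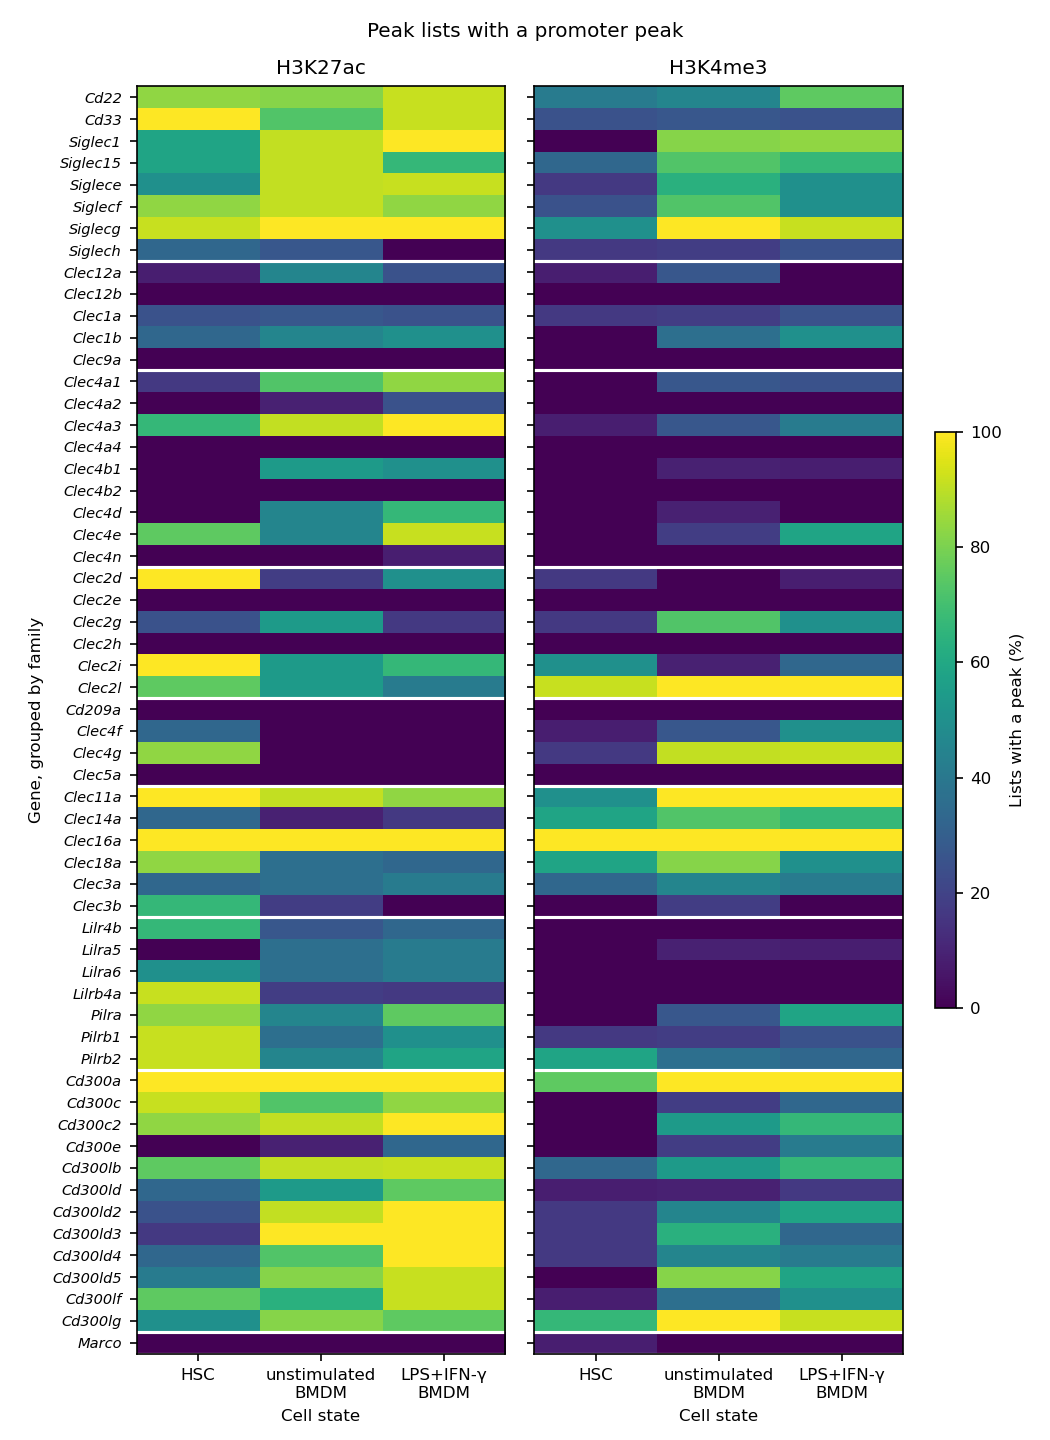
Percentage of peak lists with a peak within 1 kb of a start site for each of the 58 genes (one line each, grouped by family, white lines between families), in HSC (12 lists), unstimulated BMDM (11) and LPS+IFN-γ BMDM (12), for H3K27ac (left) and H3K4me3 (right). Colours run from 0% (dark) to 100% (yellow): Clec16a is at 100% throughout, and 8 genes are at 0% in every column. Most Siglecs and Cd300 genes are bright for H3K27ac in BMDM, whereas the Cd300ld genes and Cd300e are darker in HSC.

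The map of occupancy by gene shows that 38 members were marked in more H3K27ac than H3K4me3 lists and 10 the other way round. Clec16a, which encodes a regulator of endosomes and autophagy and despite its name no surface lectin, was marked in every list of both marks. Its H3K27ac rank was 4587 to 7261 in HSC (median 5684.5), 2695 to 8267 in unstimulated BMDM (median 5291) and 1859 to 9611 in LPS+IFN-γ BMDM (median 5287). Its H3K4me3 rank had medians of 1648, 904 and 1655.5 in the same order. Cd300a, an inhibitory receptor for phosphatidylserine, was the other member with H3K27ac in all 35 lists, at ranks of 3002 to 11549 in HSC (median 8416.5), 4664 to 9783 in unstimulated BMDM (median 7595) and 4973 to 9738 after LPS+IFN-γ (median 7519.5), and it had H3K4me3 in 9 of 12, 11 of 11 and 12 of 12 lists. For both genes the 3 cell states overlapped widely.

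At the other end, 8 members had no promoter peak in any list of either mark: Cd209a (a DC-SIGN homologue of dendritic cells), Clec5a (MDL-1, a DAP12-coupled receptor), Clec9a (DNGR-1, which detects dead cells), Clec12b, Clec2e, Clec2h, Clec4a4 and Clec4b2. Clec7a, beside the set, had none either. Marco, a scavenger receptor of macrophages, had no H3K27ac peak and 1 H3K4me3 peak, in an HSC list. Clec4n, which encodes Dectin-2, had H3K27ac in 1 list, of LPS+IFN-γ BMDM, and no H3K4me3. Clec4a2, Lilr4b, Lilra6 and Lilrb4a were the further members with no H3K4me3 list. These genes were not without nearby peaks. The nearest H3K27ac peak lay 3812 to 123719 bp from a start site of Clec9a (median 3960), so that most lists held a peak just outside its window. For Clec5a the distance was 1616 to 113956 bp, with medians of 25223 for HSC, 19251 for BMDM without stimulation and 5130.5 for those with it. For Clec7a the medians were 35636.5, 23837 and 13111.5 bp, and for Marco 37626, 44051 and 33182.5 bp, with ranges that overlapped between the cell states.

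The promoter sequences of 48 members were read from RefSeq's GRCm38 promoter table, as 250 bases before and 50 after a start. They were poor in CpG, the dinucleotide that is dense in promoters of widely used genes: the median ratio of observed to expected CpG was 0.180 over members and 0.388 over all genes of the table, and 3 members reached 0.6 (Clec16a at 1.12, Clec2l at 0.715 and Clec1b at 0.621), against 36.5% of all genes. The median GC content was 47.7% and 52.7%. Motifs of regulators of blood cells were searched by their letters on both strands. A member was counted if any of its promoters in the table matched, whereas the share beside it is of single promoters. These shares are thus not alike and cannot show an excess in members. PU.1 (GAGGAAGT) was found in 6 of the 48 members (12.5%) and in 3.2% of all promoters of the table. C/EBP (TTGCNNAA) was in 11 (22.9%) and 10.8%, and RUNX (TGTGGT) in 16 (33.3%) and 16.8%. The interferon response element (AAANNGAAA) was in 11 (22.9%) and 10.6%, and NF-κB (GGGACTTTC) in 0 and 0.353%. Of the 6 members with the PU.1 letters, 5 were Cd300 genes (Cd300ld, Cd300ld3, Cd300ld4, Cd300ld5 and Cd300lf), and 3 of these are near copies. Pilra and the near copies Pilrb1 and Pilrb2 all counted for C/EBP, RUNX and the interferon response element. None of the 5 sets of letters contains another. A match describes the letters only.

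The promoters of 6 members are printed as examples from the cell type and stimulation results, with motif matches in capitals. The median H3K27ac summit lay 1156 bp from a start of Clec1b, 697 bp from one of Clec4e and 599.5 bp from that of Clec2d. It lay 364.5 bp from the start of Cd300ld4, 361 bp from that of Cd300ld3 and 79 bp from a start of Cd33. For the genes other than Cd33, the typical summit thus lay outside the printed letters. Cd33 has 6 annotated starts, and its median distance was 79 bp in HSC and 339.5 bp in unstimulated BMDM. Whether its summits lay within the printed letters was not checked. Cd33 (chr7:43533122-43533421, minus strand) and Clec2d (chr6:129180365-129180664, plus strand) had the largest difference in H3K27ac score towards HSC among the members fixed by their known role, and Clec1b (chr6:129397047-129397346, plus strand) the largest towards BMDM among those of them that the table holds. Cd300ld3 (chr11:115048281-115048580, minus strand), Cd300ld4 (chr11:115026884-115027183, minus strand) and Clec4e (chr6:123289822-123290121, minus strand) were chosen after their values were seen. The capitals are RUNX in Cd33, the interferon response element in Clec2d, PU.1 in both Cd300 genes, and RUNX followed by C/EBP in Clec4e. Clec1b held no match.
Cd33: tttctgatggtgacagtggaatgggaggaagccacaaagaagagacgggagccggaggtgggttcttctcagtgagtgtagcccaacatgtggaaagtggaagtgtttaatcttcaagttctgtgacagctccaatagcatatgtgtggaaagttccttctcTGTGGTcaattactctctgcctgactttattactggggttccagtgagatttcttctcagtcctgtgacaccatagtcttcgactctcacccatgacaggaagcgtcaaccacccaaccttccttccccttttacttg
Clec2d: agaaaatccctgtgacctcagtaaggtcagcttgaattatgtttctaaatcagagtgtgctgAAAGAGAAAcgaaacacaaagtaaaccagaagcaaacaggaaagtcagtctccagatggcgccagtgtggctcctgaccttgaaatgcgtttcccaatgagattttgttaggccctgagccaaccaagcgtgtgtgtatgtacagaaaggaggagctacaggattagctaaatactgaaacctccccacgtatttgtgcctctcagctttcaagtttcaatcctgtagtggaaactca
Clec1b: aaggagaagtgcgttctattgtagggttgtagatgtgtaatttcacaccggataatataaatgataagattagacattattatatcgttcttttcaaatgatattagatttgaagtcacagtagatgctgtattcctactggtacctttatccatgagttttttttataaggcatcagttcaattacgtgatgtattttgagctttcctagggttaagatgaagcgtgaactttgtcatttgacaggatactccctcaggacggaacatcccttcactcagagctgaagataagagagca
Cd300ld3: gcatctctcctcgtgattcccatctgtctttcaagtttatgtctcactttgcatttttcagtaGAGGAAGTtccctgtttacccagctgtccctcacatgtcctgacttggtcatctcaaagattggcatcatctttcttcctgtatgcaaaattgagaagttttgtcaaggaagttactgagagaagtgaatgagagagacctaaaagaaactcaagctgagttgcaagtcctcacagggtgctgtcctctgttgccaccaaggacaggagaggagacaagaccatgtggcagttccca
Cd300ld4: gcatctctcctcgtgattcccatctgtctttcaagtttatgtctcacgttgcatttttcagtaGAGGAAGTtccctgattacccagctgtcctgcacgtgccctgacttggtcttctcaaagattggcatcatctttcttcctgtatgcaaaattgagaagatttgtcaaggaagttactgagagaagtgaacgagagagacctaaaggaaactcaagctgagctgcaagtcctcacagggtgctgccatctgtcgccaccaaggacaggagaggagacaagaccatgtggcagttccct
Clec4e: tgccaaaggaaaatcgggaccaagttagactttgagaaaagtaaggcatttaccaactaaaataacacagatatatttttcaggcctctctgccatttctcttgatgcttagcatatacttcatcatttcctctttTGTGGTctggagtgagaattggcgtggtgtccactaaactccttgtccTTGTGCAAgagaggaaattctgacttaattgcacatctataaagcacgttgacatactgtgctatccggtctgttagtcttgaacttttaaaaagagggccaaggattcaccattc
The promoters of Cd300ld3 and Cd300ld4 were identical at 285 of 300 positions (95%), and those of Cd300ld4 and Cd300ld5 at all 300. How reads that match more than 1 copy were placed is not given in the sources used here, so values of the single Cd300ld genes, and of other near copies such as Clec4a and Clec4b genes, Lilr genes and Pilrb1 with Pilrb2, are uncertain in their division between copies. The window of Lilr4b also holds a start site of Gm49339.

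To compare libraries of different depth, the rank score was tested with limma, fitted over all genes with a score above 0 in at least 5 lists of a mark. HSC were compared with unstimulated BMDM to ask which receptor genes were marked before and after macrophage differentiation. With this limit 12 members could be tested for H3K27ac, and 0 passed at an adjusted p under 0.05 (Benjamini-Hochberg over all genes), where 15.8% of all 11621 genes tested were higher in HSC and 15.1% higher in BMDM. Clec11a was the 1 member with an unadjusted p under 0.05. It encodes a secreted growth factor of blood progenitors. Its mean scores were 0 in control HSC, 8.37 in diabetic HSC, 37.5 in control BMDM and 16.8 in diabetic BMDM (difference −23.0, SE 10.2, limma adjusted p = 0.0810). Its median H3K27ac summit lay 1019 bp from its start in HSC, 1475.5 bp in unstimulated and 1886.5 bp in LPS+IFN-γ BMDM. The typical peak thus overlapped the window of 1000 bp but had its summit outside it.

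Since most lectin and Siglec promoters ranked below 10000, the fit planned with a limit of 15000 promoters tested more of them. It held 44 members for H3K27ac and called 14, of which 6 were higher in HSC (background 16% of 16764 genes) and 8 higher in BMDM (background 15%). The median difference over the 44 members was −2.99 and over all genes 0.315. A caution is that 20 of the 35 lists had fewer than 15000 marked promoters, so that the lower end of this score also reflects whether a weak peak was listed at all. Members entered if 5 lists gave them a score, and the 14 calls thus say nothing of the 14 members that were not tested. In bulk chromatin, a smaller share of cells with a mark and less of the mark per cell cannot be told apart. The 10 macrophage genes moved with this comparison, as given above, and the 5 erythroid genes had median scores of 14.2 in HSC and 8.44 in unstimulated BMDM. Their part in the calls was not tested. Without the 3 control libraries that went against their labels, 15 members were called, with no share of all genes given for this setting. Cd33 (13.1) and Lilrb4a (7.95) then lost their calls.

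Of the Siglecs, Siglec1 and Cd33 moved in opposite directions. Siglec1 (chr2:131069220-131086765), the sialoadhesin of resident macrophages, had an H3K27ac rank of 7374 to 12517 in 10 of 11 unstimulated BMDM lists and of 13206 to 15303 in 7 of 12 HSC lists, with no peak in the others. All its BMDM peaks ranked above all its HSC peaks, and 1 BMDM list had none. Its score was 26.7 ± 12.8 (SD, n = 11) in unstimulated BMDM and 2.64 ± 3.77 (n = 12) in HSC, a difference of −24.2 (SE 4.13, limma adjusted p = 9.77e-06). The median deposited fold of its peaks was 5.31 in unstimulated BMDM and 3.13 in HSC. Siglec1 was also without H3K4me3 in all 12 HSC lists and marked in 9 of 11 unstimulated BMDM lists (adjusted Fisher p = 0.0103).

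Cd33 (chr7:43524216-43544428), a Siglec of myeloid cells and the first promoter printed above, had an H3K27ac peak in 12 of 12 HSC lists, at ranks of 9454 to 14272 (median 11584.5), and in 8 of 11 unstimulated BMDM lists at 9731 to 15282 (median 14935). The ranks overlapped. Its score was 22.9 ± 8.27 (n = 12) in HSC and 8.49 ± 12.0 (n = 11) in unstimulated BMDM, a difference of 15.1 (SE 5.96, limma adjusted p = 0.0486), which was lost without any of 24 of the 35 libraries in turn. Its H3K4me3 was listed in 3 lists of each cell state.

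The remaining Siglecs passed no test between HSC and BMDM by rank. Siglecg (Siglec-G, a restraint on B cell receptor signals) had H3K27ac in 11 of 12 HSC lists (8004 to 12078, median 11434 over all 12) and in all 11 unstimulated BMDM lists (9312 to 13267, median 12115), and H3K4me3 in 6 of 12 and 11 of 11. Siglecf, a marker of eosinophils and alveolar macrophages, had H3K27ac in 10 of 12, 10 of 11 and 10 of 12 lists of HSC, unstimulated and LPS+IFN-γ BMDM, with median ranks of 11759.5, 12175 and 12111.5. Siglece, an inhibitory Siglec of myeloid cells, had it in 6 of 12, 10 of 11 and 11 of 12 lists. Cd22, the B cell Siglec, was marked in 10 of 12, 9 of 11 and 11 of 12 lists, at median ranks of 14819, 13375 and 12789. Of the 6 B cell genes a median of 4 had an H3K27ac peak in HSC lists, all beyond rank 10000. Siglech, a marker of plasmacytoid dendritic cells, had H3K27ac in 4 of 12, 3 of 11 and 0 of 12 lists, and Siglec15 (a DAP12-coupled Siglec of osteoclasts) in 7 of 12, 10 of 11 and 8 of 12.

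**Figure D2:**
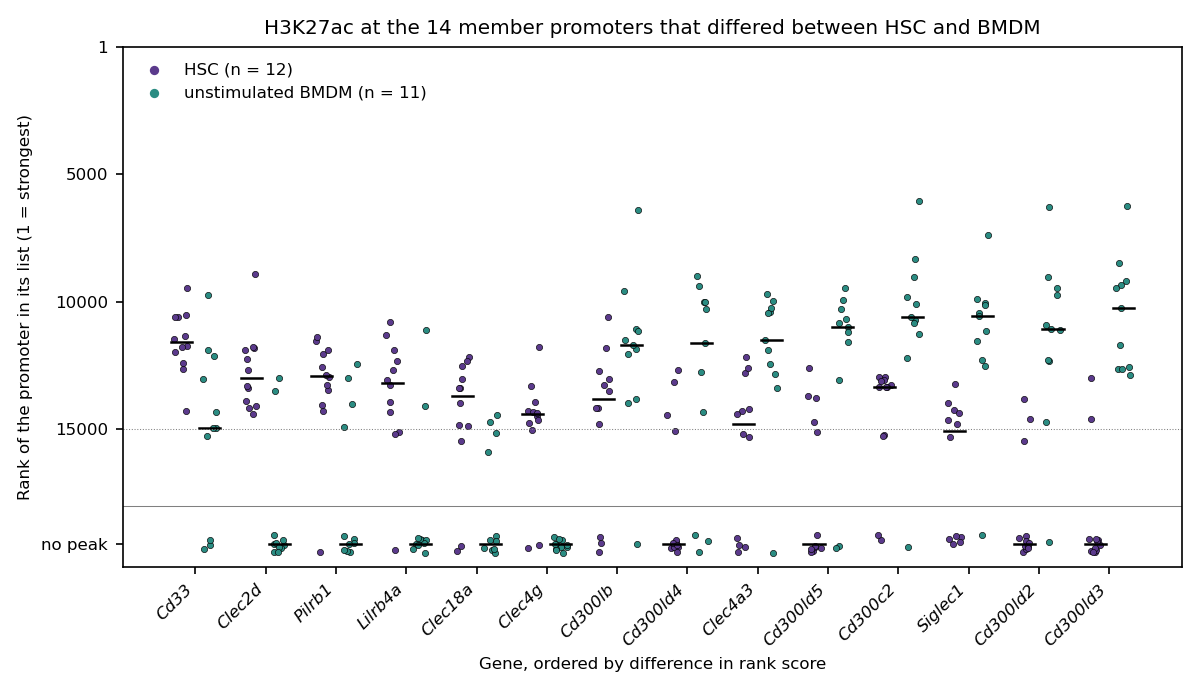
Rank of the promoter within its H3K27ac list (vertical axis, 1 = strongest at the top, a separate lane for lists with no peak) for the 14 genes that passed the test over 15000 promoters, ordered by the difference in rank score. Each point is a library of HSC (purple, 12) or unstimulated BMDM (green, 11), bars are medians with lists lacking a peak placed last, and the dotted line is the limit of 15000. Cd300ld3 shows no overlap, with 10 HSC lists lacking a peak and BMDM ranks of 6223 to 12856.

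The Cd300 genes, receptors for lipids whose members on chromosome 11 include inhibitory and activating forms, made up 6 of the 8 calls higher in BMDM. Cd300ld3 (chr11:115042131-115048409) had H3K27ac in all 11 unstimulated BMDM lists at ranks of 6223 to 12856 (median 10229) and in 2 of 12 HSC lists at 12989 and 14584, without overlap. Its score was 30.2 ± 14.4 (n = 11) against 1.35 ± 3.88 in HSC (n = 12), a difference of −28.6 (SE 5.49, limma adjusted p = 6.02e-05). In the full lists, its occupancy of 2 of 12 against 11 of 11 also passed (adjusted Fisher p = 0.0042). Its neighbours Cd300ld2 (difference −24.95, SE 4.63, adjusted p = 3.71e-05), Cd300c2 (−22.7, SE 5.33, adjusted p = 0.000815), Cd300ld5 (−18.8, SE 4.92, adjusted p = 0.00257) and Cd300ld4 (−16.6, SE 5.29, adjusted p = 0.0131) followed in limma.

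Cd300lb, an activating receptor that pairs with DAP12, was higher in BMDM at the edge of the threshold (−12.5, SE 4.92, limma adjusted p = 0.0470), and its call was lost without any of 16 libraries in turn. The other Cd300 genes passed no test between the cell types by rank. Cd300c had H3K27ac in 11 of 12 HSC and 8 of 11 unstimulated BMDM lists, Cd300lf in 9 and 7, Cd300lg, which lies apart from the cluster, in 6 and 9, Cd300ld in 4 and 6, and Cd300e in 0 and 1. The near copies Cd300ld3, Cd300ld4 and Cd300ld5 thus gave 3 of the calls from promoters that differ at 15 positions or none, and cannot be counted as independent.

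Of the C-type lectin receptors, Clec4a3, a DCIR-like receptor of the Dectin-2 cluster, was the member higher in BMDM. Its H3K27ac rank was 9704 to 13393 in 10 of 11 unstimulated BMDM lists and 12168 to 15315 in 8 of 12 HSC lists, with scores of 22.5 ± 11.1 (n = 11) and 5.32 ± 7.14 (n = 12) and a difference of −16.7 (SE 4.30, limma adjusted p = 0.00211). Clec4b1, of the same cluster, was at 0 of 12 HSC and 6 of 11 unstimulated BMDM lists (adjusted Fisher p = 0.0483), a call that was lost without any of 18 libraries in turn. Clec4d (MCL, which pairs with Mincle) had H3K27ac in 0 of 12 HSC, 5 of 11 unstimulated and 8 of 12 LPS+IFN-γ BMDM lists, and Clec4a1 in 2 of 12, 8 of 11 and 10 of 12, without a call when all libraries were kept. Clec4a1 was called higher in BMDM by occupancy without the 3 control libraries that went against their labels. Clec12a, an inhibitory receptor for uric acid crystals, was marked in 1 of 12, 5 of 11 and 3 of 12.

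Genes higher in HSC came from several families. Clec2d, the ligand of an inhibitory NK cell receptor and the second promoter printed above, had H3K27ac in 12 of 12 HSC lists at ranks of 8914 to 14397 (median 13001) and in 2 of 11 unstimulated BMDM lists at 12987 and 13484. The ranks overlapped, and the groups differed mainly in the lists that held a peak. The score was 15.3 ± 10.2 (n = 12) and 2.14 ± 4.82 (n = 11), a difference of 13.3 (SE 3.57, limma adjusted p = 0.00320), and its occupancy passed as well (adjusted Fisher p = 0.0042). Lilrb4a, an inhibitory immunoglobulin-like receptor, had H3K27ac in 11 of 12 HSC, 2 of 11 unstimulated and 2 of 12 LPS+IFN-γ BMDM lists (difference 9.28, SE 3.03, limma adjusted p = 0.0157, adjusted Fisher p = 0.0179). Pilrb1, an activating paired receptor, was marked in 11 of 12 and 4 of 11 lists (10.6, SE 3.29, limma adjusted p = 0.0110), and its inhibitory partner Pilra in 10 of 12 and 5 of 11, without a call. Clec18a, of the other Clec genes, was marked in 10 of 12 and 4 of 11 lists (7.64, SE 2.35, limma adjusted p = 0.0103).

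Clec4g (LSECtin, known from liver sinusoidal endothelium) was the member whose marks went opposite ways. Its H3K27ac was listed in 10 of 12 HSC lists, at ranks no better than 11784, and in none of the 23 BMDM lists, whereas its H3K4me3 was listed in 2 of 12 HSC lists and in 10 of 11 unstimulated and 11 of 12 LPS+IFN-γ BMDM lists. Both contrasts of HSC with unstimulated BMDM passed (adjusted Fisher p = 0.0042 for H3K27ac and 0.0232 for H3K4me3). All these peaks were weak: the H3K27ac peaks of HSC had a median deposited fold of 3.54, and the H3K4me3 peaks of unstimulated BMDM one of 3.94. By score the H3K27ac difference was 5.11 (SE 1.81, limma adjusted p = 0.0264). The H3K4me3 call was lost without the 3 H3K4me3 libraries of the same groups and numbers as the H3K27ac libraries that went against their labels.

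In the full H3K27ac lists 39 members could be tested for occupancy by Fisher's exact test (two-sided), and 3 were called higher in HSC (Clec2d, Clec4g and Lilrb4a; background 5.73% of 4187 genes) and 3 higher in BMDM (Cd300ld2, Cd300ld3 and Clec4b1; background 3.75%). The Cd300ld2 call was lost without any of 16 of 23 libraries in turn. Without the 3 control libraries that went against their labels, the calls of 3 genes in each direction held. Pilrb1 was then also called higher in HSC and Clec4a1 higher in BMDM, where 126 and 95 of 3839 genes were called. Within the 20000 best peaks of each list, 15 could be tested, and 0 were called higher in HSC (background 23.1%) and 7 higher in BMDM (background 7.59%). These were Cd300c2 (0 of 12 HSC and 8 of 11 BMDM lists), Siglec1 (0 and 7), Cd300ld2, Cd300ld3 and Cd300ld5 (0 and 6 each), Clec11a (3 and 9) and Cd300ld4 (0 and 5), with adjusted Fisher p from 0.00365 to 0.0448. Genes at 0 of 12 HSC lists could be tested only through their BMDM lists. The split of 0 and 7 is thus not read as a result about the set. Cd300ld3, Cd300ld4 and Cd300ld5 are near copies and cannot be counted as independent. Of the 6 genes higher in HSC by rank, Cd33 alone had enough strong peaks to be tested there, with 7 of 12 and 1 of 11 lists (adjusted Fisher p = 0.0826). The distance of the Clec11a summits from its start, given above, limits its call here too.

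H3K4me3 gave fewer calls. Clec2l, a Clec2 gene with a CpG-rich promoter, was the single call among 4 members tested over 10000 promoters (background 8.63% higher in HSC and 6.82% higher in BMDM). Its H3K4me3 rank was 1711 to 10413 in 11 of 12 HSC lists (median 7243 over all 12) and 7978 to 12846 in all 11 unstimulated BMDM lists (median 10678), and the difference in score was 24.6 (SE 7.06, limma adjusted p = 0.0135). It did not pass when ranked by fold (15.4), with the list length as covariate (25.2) or ranked over all genes (11.01), and no member was called over 5000 promoters. Over 15000 promoters 28 members were tested and 2 called, Clec2l higher in HSC (a difference of 20.0 with SE 6.96 and limma adjusted p = 0.0417, lost without any of 14 libraries in turn, background 7.8%) and Clec1b higher in BMDM (background 8.28%). Clec1b (CLEC-2, the podoplanin receptor of platelets) had H3K4me3 in 0 of 12 HSC lists, 4 of 11 unstimulated and 6 of 12 LPS+IFN-γ BMDM lists, with a difference of −8.71 (SE 2.95, limma adjusted p = 0.0363) that was lost without any of 4 libraries in turn. Its H3K27ac, in 4 of 12, 5 of 11 and 6 of 12 lists, gave no call. The mean score of 6 megakaryocyte genes had medians of 0 in HSC and 4.26 in unstimulated BMDM for this mark, and their part in the result was not tested.

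Occupancy of the full H3K4me3 lists was called higher in BMDM for 4 of 30 members: Siglec1 and Cd300ld5 (0 of 12 and 9 of 11 each, adjusted Fisher p = 0.0103), Clec4g (2 of 12 and 10 of 11, adjusted Fisher p = 0.0232) and Cd300c2 (0 of 12 and 6 of 11, adjusted Fisher p = 0.0468). The Cd300c2 call was lost without any of 21 of 23 libraries in turn. Without the 3 same-numbered control libraries, which were not themselves found against their labels, the calls of Siglec1 and Cd300ld5 remained. The background was 9.67% higher in BMDM and 0.109% higher in HSC, a lopsided split beside which the larger share of all genes marked in BMDM lists is to be read. Within the 20000 best H3K4me3 peaks none of the 2 members that could be tested was called.

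The gene clusters were also read as whole regions, as the share of their length covered by the 20000 best H3K27ac peaks. Peaks anywhere in a region count here, whether or not they lie at a member. The Cd300 cluster (chr11:114890041-115133992, 11 members) was covered to 0.282% to 1.55% in HSC (median 1.02), 0.828% to 10.0% in unstimulated BMDM (median 2.04) and 1.06% to 11.2% in LPS+IFN-γ BMDM (median 3.05). The Dectin-2 cluster (chr6:122921848-123289870, 9 members, from Clec4a1 to Clec4e) was covered to 0% to 0.495% in HSC (median 0), 0.0867% to 1.00% in unstimulated BMDM (median 0.418) and 0.579% to 1.23% after LPS+IFN-γ (median 0.731), so that all 12 stimulated lists lay above all 12 HSC lists. The region from Clec2h to Clec1a (chr6:128662385-129452000, 10 members) had medians of 1.35%, 0.926% and 1.17%, and the Siglec region (chr7:43351341-43660161, 4 members) of 2.89%, 2.24% and 2.59%, with overlap between all states. For H3K4me3 the order differed, with medians of 0.465%, 0.653% and 0.670% in the region from Clec2h to Clec1a and of 1.01%, 2.02% and 1.52% in the Siglec region, again with overlap. No test was made of these shares. Clec9a, Clec12b, Clec4a4 and Clec4n lie inside these regions and had no or a single marked promoter. In the same order of cell states, the median number of these H3K27ac peaks was 12, 10 and 12 from Clec2h to Clec1a. It was 9.5, 8 and 9 in the Siglec region. The Cd300 cluster had 3.5, 8 and 11.5, and the Dectin-2 cluster 0, 2 and 4. Over all 35 lists, a median of 8 of the 58 member promoters had such a peak. The coverage is thus not read as that of the members alone.

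**Figure D3:**
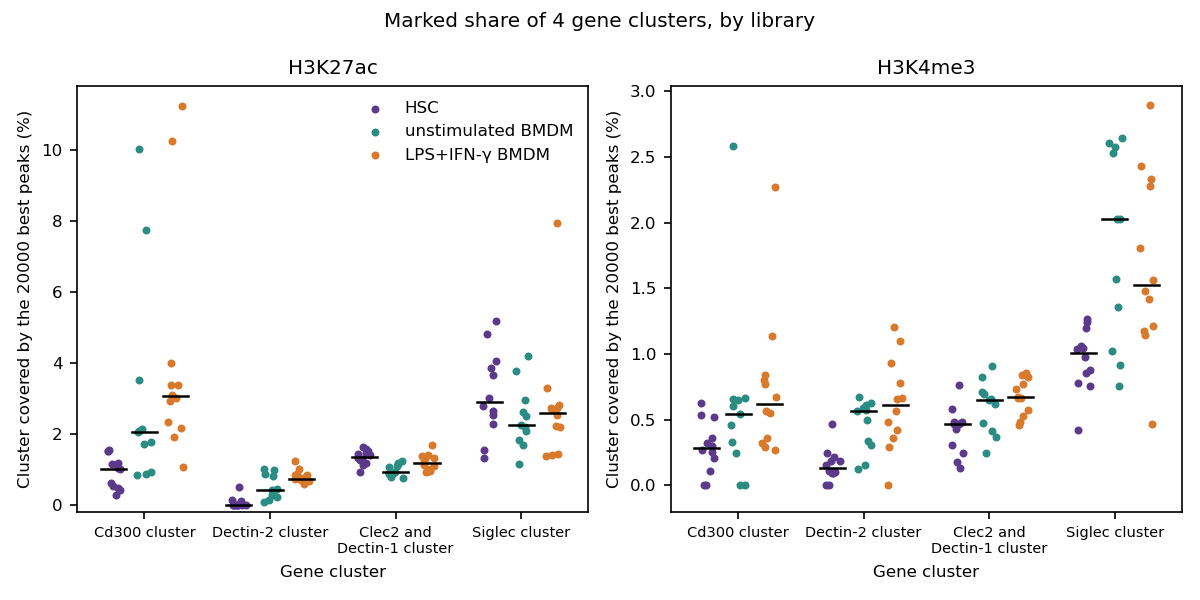
Percentage of the length of 4 gene clusters covered by the 20000 best peaks of each library, for H3K27ac (left) and H3K4me3 (right). Each point is a library of HSC (purple, 12), unstimulated BMDM (green, 11) or LPS+IFN-γ BMDM (orange, 12), and bars are medians: the H3K27ac medians of the Cd300 cluster are 1.02, 2.04 and 3.05, and those of the Dectin-2 cluster 0, 0.418 and 0.731.

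Stimulation with LPS and IFN-γ was compared with medium alone to ask which receptor promoters respond to an inflammatory stimulus. Over 10000 promoters 0 of 12 members were called for H3K27ac (background 1.23% higher and 1.94% lower), with 1 at an unadjusted p under 0.05. Over 15000 promoters 3 of 44 were called, all higher after stimulation: Cd300lf, Clec4e and Cd33 (background 1.42% higher and 1.46% lower). Under the alternatives these calls did not all hold: ranked by fold none of the 3 passed, with a window of 500 bp Cd33 alone did, and with the compared groups alone Cd300lf alone did. The median difference was 2.07 over the members and −0.163 over all genes, with the limit on such medians given above.

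Clec4e encodes Mincle, a receptor for mycobacterial glycolipids that pairs with the Fc receptor gamma chain. Its H3K27ac rank was 7032 to 13352 in 11 of 12 stimulated lists (median 11471.5) and 9968 to 14844 in 5 of 11 unstimulated lists, with overlap. Its score was 24.8 ± 15.2 (n = 12) against 7.63 ± 12.7 (n = 11), a difference of 17.8 (SE 4.67, limma adjusted p = 0.0249). Its H3K4me3 was listed in 7 of 12 stimulated and 2 of 11 unstimulated lists. Clec4d, its neighbour, was not called.

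Cd300lf, an inhibitory Cd300 receptor also known as the mouse norovirus receptor, had H3K27ac ranks of 8611 to 12862 in 11 of 12 stimulated lists (median 12107) and 11620 to 15315 in 7 of 11 unstimulated lists (median 14917). Its score was 21 ± 10.1 (n = 12) and 5.27 ± 8.58 (n = 11), a difference of 15.8 (SE 3.45, limma adjusted p = 0.00606). Cd33 ranked 829 to 14241 in 11 of 12 stimulated lists (median 11674) and rose by 21.7 in score (SE 5.96, limma adjusted p = 0.0318), from 8.49 ± 12.0 (n = 11) to 29.6 ± 24.4 (n = 12). Its rank of 829 came from diabetic library 3. Without that library the differences of Cd33 (15.6) and Clec4e (14.99) no longer passed. The same 2 calls were lost without control stimulated library 3 (19.7 and 15.2) and without control unstimulated library 4 (20.3 and 16.4). The Cd33 call was also lost without control stimulated library 1 (20.3), and that of Clec4e without control unstimulated library 2 (16.4).

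**Figure D4:**
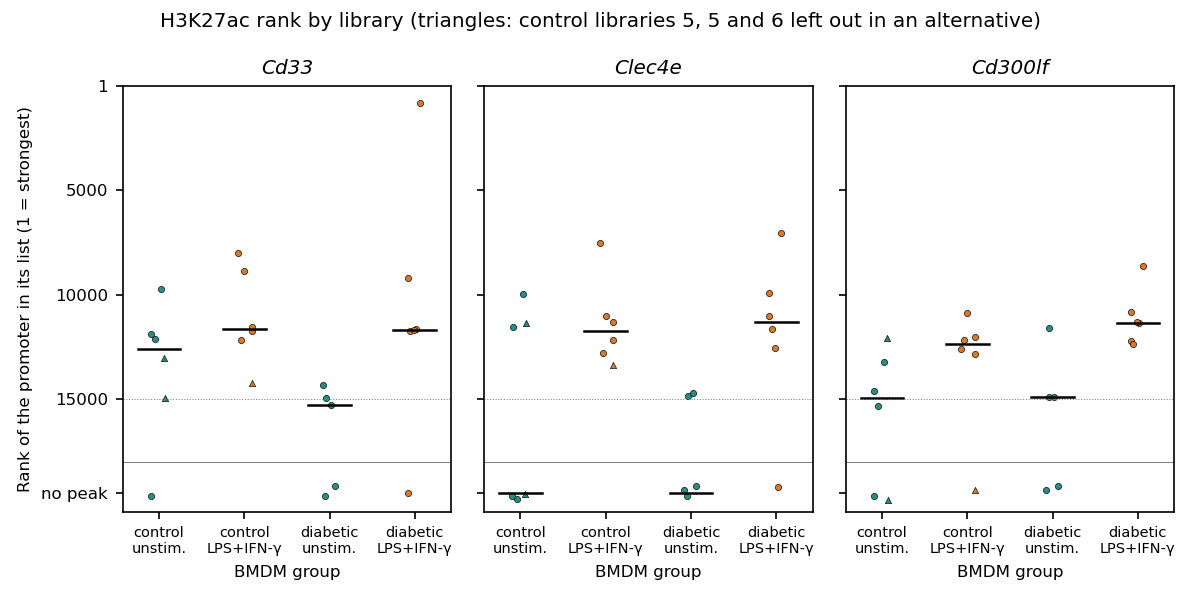
Rank of the promoters of Cd33, Clec4e and Cd300lf within each H3K27ac list (vertical axis, 1 = strongest at the top, a separate lane for lists with no peak) in the 4 BMDM groups. Points are libraries (5 in diabetic unstimulated BMDM, 6 in each other group), triangles the 3 control libraries that went against their labels, and bars medians with lists lacking a peak placed last. In diabetic mice, 5 of 6 stimulated lists rank Cd33 and Clec4e above every unstimulated list.

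In diabetic mice the same 3 genes were called (background 1.37% higher and 1.73% lower over 15000 promoters, and 1.07% and 2.07% over 10000, where 0 of 12 members were). None of the 3 passed when ranked by fold, with the compared groups alone, or with the replicate number as a block (differences of 25.2 for Cd33, 22.7 for Clec4e and 19.1 for Cd300lf). Cd33 ranked 829, 9220, 11662, 11686 and 11728 in 5 stimulated diabetic lists, with no peak in the other, and 14327, 14935 and 15282 in 3 of 5 unstimulated ones, so that 5 of 6 stimulated lists lay above all 5 unstimulated lists. The difference was 32.2 (SE 8.63, limma adjusted p = 0.0296) for Cd33, 24.8 (SE 6.77, adjusted p = 0.0329) for Clec4e and 21.1 (SE 4.99, adjusted p = 0.0134) for Cd300lf. Without diabetic stimulated library 3 the differences were 20.0, 19.3 and 17.8, and none of the 3 passed. Without diabetic unstimulated library 1, 4, 5 or 6 in turn, Cd300lf was the 1 call of these that remained. The Clec4e call was also lost without diabetic stimulated library 1 (23.1) or unstimulated library 2 (24.9).

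In control mice 0 members were called at either limit (background 0% of all genes over 10000 promoters), with 1 of 44 at an unadjusted p under 0.05 (Cd300lf, difference 10.4, SE 4.76, limma adjusted p = 0.902). The difference of the response between diabetic and control mice passed for 0 members (background 0%), with 3 of 44 at an unadjusted p under 0.05 over 15000 promoters: Clec4a3, Cd300lg and Cd300ld5 (limma adjusted p from 0.734 to 0.756). A response particular to diabetic mice was thus not shown. The limma counts at an unadjusted p stand here without the share of all genes and are not read as results. Without the 3 control libraries that went against their labels, the 3 calls of the pooled comparison remained, with differences of 21.8 for Cd33, 18.8 for Clec4e and 18.4 for Cd300lf. H3K4me3 gave no call on stimulation, pooled, in control mice or in diabetic mice (background 0% each), with at most 4 of 28 members at an unadjusted p under 0.05, and its response did not pass as different between the mice for any member (background 0%, with 2 of 28 at an unadjusted p under 0.05). By occupancy of the full lists 0 of 28 members were called for H3K27ac and 0 of 30 for H3K4me3 (background 0% each), with 1 and 0 at an unadjusted Fisher p under 0.05. Of all genes tested, 227 of 4157 and 34 of 2768 had such a Fisher p.

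No member passed a test between diabetic and control mice. In limma over 10000 promoters 0 of 12 members were called for H3K27ac in HSC (background 0%), unstimulated BMDM (background 0.00861%) or LPS+IFN-γ BMDM (background 0%), and 0 of 4 for H3K4me3 (background 0% in each). At an unadjusted p under 0.05 there were 0, 0 and 1 for H3K27ac and 0 for H3K4me3. Subtracting the disease effect of unstimulated BMDM from that of HSC also gave 0 calls (background 0% for either mark). Over 15000 promoters, 2, 2 and 1 of 44 members had an unadjusted p under 0.05 for H3K27ac in the same order, and 0, 1 and 3 of 28 for H3K4me3. For H3K27ac these were Siglecf (−12.0, SE 5.40) and Clec4g (−5.30, SE 2.50) in HSC, Cd300ld5 (−16.5, SE 7.13) and Cd300lg (11.8, SE 5.63) in unstimulated BMDM, and Cd300lf (9.80, SE 4.76) in stimulated BMDM, with limma adjusted p from 0.735 to 1. The share of all genes at these unadjusted limma p-values is not given here, so these counts and named genes are not read as results. By occupancy of the full lists 6, 9 and 17 members could reach a Fisher p of 0.05 for H3K27ac in HSC, stimulated and unstimulated BMDM, and 7, 15 and 11 for H3K4me3, and 0 did. Among all genes, 15 of 1014, 17 of 1352 and 6 of 2048 did for H3K27ac, and 6 of 1151, 7 of 871 and 61 of 1237 for H3K4me3. Within the 20000 best peaks Cd300a had H3K4me3 in 1 of 5 diabetic and 6 of 6 control unstimulated BMDM lists (Fisher p = 0.0152, adjusted p = 1).

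The number of marked members overlapped between diabetic and control lists in every state. In HSC 22 to 35 member promoters had H3K27ac in control lists (median 31) and 13 to 37 in diabetic lists (median 23.5). In unstimulated BMDM the counts were 17 to 44 (median 29) and 18 to 35 (median 24), and after LPS+IFN-γ 26 to 41 (median 31) and 18 to 35 (median 27.5). For H3K4me3 in HSC they were 5 to 18 (median 12) and 1 to 19 (median 10). No test was made of these counts.

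The signalling partners of these receptors were read from a fixed list, of which 19 genes are given here and which includes the kinases, adaptors and phosphatases of the route. Unlike most receptors, all 19 entered the H3K27ac fit over 10000 promoters. Between HSC and BMDM, 6 were higher in BMDM and 1 higher in HSC (backgrounds as above). The Src-family kinases Src (−31.9, SE 7.47) and Lyn (−26.6, SE 5.32), the phospholipase Plcg2 (−39.6, SE 7.01), Syk itself (−33.8, SE 6.57), its downstream kinase Prkcd (−33.6, SE 5.82) and the paracaspase Malt1 (−19.5, SE 5.56) were higher in BMDM, with limma adjusted p from 1.38e-05 to 0.00571, and the phosphatase Ptpn11 was higher in HSC (27.4, SE 6.66, adjusted p = 0.00127). Fcer1g, the partner of Mincle, was the one called on stimulation (14.7, SE 4.20, limma adjusted p = 0.0393, and 26.6, SE 6.08, adjusted p = 0.0114 in diabetic mice). For H3K4me3, of 18 tested, Syk (24.6, SE 8.92, limma adjusted p = 0.0469) and Malt1 (39.0, SE 10.9, adjusted p = 0.0111) were higher in HSC, so that Syk and Malt1 differed in opposite directions in the 2 marks. Over 15000 promoters no partner was called on stimulation.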

How the data were processed

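ChIP-seq of H3K27ac and H3K4me3 comprised 106 samples, 36 of them inputs with no list used here. The submitters' processing notes name Trim Galore 0.3.3 with cutadapt 1.8, FastQC 0.11.3, Bowtie2 2.2.6, Picard 2.18.14 and 2.19.2, bedtools 2.19.1 and MACS2 2.2.7.1, with GRCm38. The authors deposited 1 list of peaks per library, holding an integer score, the fold enrichment over local background as a ratio, the deposited −log10 p and −log10 q, and the summit offset. The handling of reads that match several places is not given in the sources used here. The lists hold no read totals, so depth is unknown and no counting interval is given.

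A promoter was any annotated start site (GENCODE M21, GRCm38) with 1000 bp on each side, and took the highest −log10 p of the peaks that overlap it. Promoters were ranked within a list, which removes differences of scale but not of depth in the weak peaks. Rank scores over the 10000 best promoters were fitted in limma 3.58.1 (R 4.3.3, with the package data.table at version 1.17.8) with 6 groups per mark, for genes with a score above 0 in at least 5 lists. Occupancy was compared by Fisher's exact test, two-sided, over genes whose number of marked lists could reach a p of 0.05. p-values were adjusted by Benjamini-Hochberg over all genes tested, with a threshold of 0.05. Counts of members at an unadjusted limma p under 0.05 are given without the share of all genes and are not read as results. Python 3.11.15, pandas 2.3.3, numpy 2.4.6, SciPy 1.17.1 and matplotlib 3.10.9 served for the rest. The fit was tested on simulated data. Promoter sequences came from RefSeq's table for GRCm38.p6, where 48 members matched by symbol. Clusters were 4 or more members with gaps of at most 250 kb.

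Libraries were grouped by their labels. Named were members that passed a test, 24 genes of known role (Clec7a included) and members marked in none or all of the lists of a mark. The members, gene lists and tests were chosen with earlier results of these data known. Alternatives were ranking over 5000 or 15000 promoters, ranking by fold, a window of 500 bp, summits inside the window, a −log10 q of at least 3, no filter on low scores, the list length as covariate, the compared groups alone, the replicate number as a block, and leaving out each library or the 3 that went against their H3K27ac labels (for H3K4me3, the libraries of the same groups and numbers). Ranking over all genes, and the alternatives of the fit over 15000 promoters, were added after seeing the data. A total of 2 genes are not reported here.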

Additional observations from a re-analysis of the deposited data

Results flagged for a closer look

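In 5 of 46 groups tested by Dixon's rule a library stood apart from the others of its group, where chance gives about 1 in 20. Among the 20000 best H3K4me3 peaks, library 1 of control unstimulated BMDM held 13 member promoters and the other 5 libraries 2 to 4. Cd300a ranked 3002 for H3K27ac in library 4 of control HSC and 7554 to 9538 in the others. Clec16a ranked 8917 for H3K27ac and 7643 for H3K4me3 in library 3 of control LPS+IFN-γ BMDM, against 3821 to 5479 and 591 to 1947 in the others. Clec16a also ranked 3615 for H3K4me3 in library 2 of diabetic unstimulated BMDM, against 57 to 904.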

How the results depend on the processing

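No result changed direction under any alternative run. Of the H3K27ac comparison of HSC with unstimulated BMDM, the count of 0 members became 14 over 15000 promoters, 20 over all genes, 1 with the list length as covariate and 1 with the replicate block, and 0 to 1 without each library in turn. Its counterpart over 15000 promoters, 14, was 12 to 16. On stimulation the 0 members, pooled and in diabetic mice, became 3 over 15000 promoters. Those 3 were 0 ranked by fold, 1 with 500 bp and 1 with the compared groups alone when pooled (1 to 3 without each library), and in diabetic mice 0 ranked by fold, 1 with no filter, 0 with the compared groups alone and 0 with the replicate block (0 to 4 without each library). For H3K4me3 the 1 member called between HSC and BMDM became 0 over 5000 promoters, 2 over 15000, 7 over all genes, 0 ranked by fold and 0 with list length (1 to 1 without each library). The 2 over 15000 became 0 ranked by fold, 1 with 500 bp, 0 with list length, 1 with the compared groups alone, 1 without the 3 same-numbered control libraries and 1 with the replicate block (0 to 3 without each library). Occupancy calls were 4 to 6 for H3K27ac and 2 to 4 for H3K4me3 without each library, and the 4 of H3K4me3 became 0 in the 20000 best peaks and 2 without the 3 same-numbered control libraries. All other counts of 0 stayed at 0 to 0. Same-numbered libraries of paired groups correlated at −0.341 to 0.447 in their deviations, so the numbers were not taken as pairing, and the replicate block moved no other count by over 1.5 times. The cause of these changes was not tested. For most of the alternatives the share of all genes called is not given here. Their counts of members are thus not read as an excess over all genes. Depth is unknown, so what it limits could not be measured.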
